A study of Mus musculus with 6 samples.

Results

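The genes that acidify the lumen of the male tract were examined in RNA of mouse sperm nuclei and whole sperm. They are the subunits of the vacuolar proton pump (V-ATPase), the carbonic anhydrases and 6 genes of ion and water transport and their control. Members were chosen by gene symbol alone: every symbol of a V0 or V1 subunit or V-ATPase accessory protein, every numbered carbonic anhydrase (Car), and Cftr, Slc9a3, Slc4a4, Slc4a2, Aqp9 and Foxi1. The rule found 48 of 23229 annotated genes, with 26 V-ATPase genes, 16 carbonic anhydrases and the 6 others, and 34 of the 48 had enough counts to be tested.

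Sperm came from the cauda epididymis and vas deferens of adult C57BL/6 mice of transgenic line HP3.1, aged 4 months; nuclei and whole sperm both carried the transgene, whose content is not given in the sources used here. In all, the study's 6 samples are 2 sequencing runs of each of 3 preparations, 2 of nuclei, which were sonicated and purified through sucrose and caesium chloride gradients with detergent, and 1 of whole sperm, checked by eye for other cells. The runs of a preparation were combined, so 2 nuclei libraries stood against 1 whole-sperm library without a replicate. No label says which animals a preparation came from, so p-values measure the spread between these libraries, which may be technical. In the main test (edgeR) that spread was pooled over genes. A gene's own gap between the nuclei libraries therefore did not set its p or standard error (SE). Triplets of values below are in the order nuclei 1, nuclei 2, whole sperm.

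The V-ATPase has a cytosolic V1 sector, which hydrolyses ATP, and a membrane V0 sector, through which protons pass. Carbonic anhydrases convert carbon dioxide and water into bicarbonate and protons. In the epididymis, clear cells place the pump on their apical membrane and principal cells take up bicarbonate, and the resulting acid, low-bicarbonate fluid keeps stored sperm quiet. The pump also acidifies lysosomes and the acrosome, so most subunits are made in many cell types, while some isoforms are limited to acid-secreting epithelia or to testis.

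The libraries held 5487306, 6648848 and 8316345 counts on genes and assembled regions. The labelled cell type was checked with 9 sperm markers, all of them counted in every library. Their summed level was 4791, 4350 and 2487 CPM (counts relative to the library total, scaled between libraries with TMM factors). Both nuclei libraries lay above whole sperm for 6 of these markers and below it for 2, Smcp and Ldhc. Markers of epididymal principal cells summed to 2676, 2698 and 16727 CPM, with all 7 tested of 9 listed below whole sperm in both nuclei libraries and Lcn5 and Lcn8 at 0 throughout. Of those 7, Crisp1 fell (log2 -3.67, edgeR adjusted p = 0.024), and Gpx5 had 0, 0 and 88 counts. Markers of epithelium summed to 80.7, 138 and 414 CPM, with all 6 below whole sperm in both nuclei libraries. Leukocyte markers summed to 34.9, 15.7 and 55.7 CPM, smooth muscle and stroma markers to 167, 94.9 and 142 CPM, and basal cell markers to 2.48, 51.6 and 21.9 CPM, while erythrocyte markers, whose cells hold much carbonic anhydrase, had 0, 4 and 3 counts. The part of these cells in the values below was not tested. In such bulk RNA, fewer cells of a type and less RNA per cell cannot be told apart.

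The proton-conducting ring of V0 is built from Atp6v0c, whose counts and RPKM did not match. Atp6v0c (build mm10, chr17:24163866-24169702, minus strand) and the processed pseudogene Atp6v0c-ps2 (chr6:37806086-37806550, plus strand) had 0 counts in every library. In the authors' RPKM table, in which reads are divided by transcript length and depth, Atp6v0c was at 7.62, 19.1 and 16.5. Atp6v0c-ps2 was at 7.85, 19.6 and 16.9 RPKM, a ratio of 0.971 in each library. The 465 annotated bases of the pseudogene matched the 468-base coding sequence of Atp6v0c at 464 positions with 1 mismatch. Bases 1 to 150 of both, counted from the start codon in GENCODE transcripts, are shown because they hold that mismatch, in capitals.
Atp6v0c: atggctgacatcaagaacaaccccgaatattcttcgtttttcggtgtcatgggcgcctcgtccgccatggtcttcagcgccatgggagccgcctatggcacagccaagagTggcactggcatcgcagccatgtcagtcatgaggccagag
Atp6v0c-ps2: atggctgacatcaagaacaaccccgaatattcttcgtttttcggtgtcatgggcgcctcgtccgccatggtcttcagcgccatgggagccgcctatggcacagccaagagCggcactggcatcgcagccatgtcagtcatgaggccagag
With sequences so alike the RPKM of each is uncertain, and their counts of 0 do not show that the ring subunit's RNA was absent. Of 6133 annotated genes at 0 counts in every library, 93 (1.52%) exceeded 1 RPKM in whole sperm, and of the 8 such members these were the 2.

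Most tested V-ATPase genes lay below whole sperm in both nuclei libraries, and 4 of the 7 tested carbonic anhydrases (Car2, Car5b, Car12 and Car14) lay above it in both, but no member passed the test in either direction. On data simulated with the spread of these libraries the test did not recover large changes. It did call 20 genes in the libraries themselves, so the simulation does not match the data for every gene. A count of 0 does not show that members were alike. Of 14397 genes tested, 0.139% passed at an adjusted p under 0.05 (edgeR quasi-likelihood test, Benjamini-Hochberg adjustment over all features), and of the 34 members 0 did, higher (0.0278% of genes) or lower (0.111%). With no adjustment, p was under 0.05 for 1 member above whole sperm (Car5b), against 3.11% of genes, and for 4 below it (Atp6ap2, Atp6v0a1, Atp6v1a and Aqp9), against 2.33%. DESeq2 called 0 members, but it gave an adjusted p for Car5b (0.0566) and Cftr (0.564) alone, so the other members could not be called. Limma on log2 RPKM called 0 members and 0 of all genes. Without adjustment, DESeq2 put 2 of 34 members above (5.88%, against 5.63% of genes) and 3 below (8.82%, against 2.31%). Limma put 0 of 42 above, and below it put 7 (16.7%, against 14.2% of genes) with a pseudocount of 0.1 RPKM and 12 (28.6%, against 17.4%) with 1 RPKM. When libraries were scaled by the synthetic ERCC spike-in RNAs, the median of all tested genes moved from -0.04 to -1.48 on the log2 scale. Under that scaling 5 members (14.7%) fell, against 3.66% of genes: Atp6ap2 (log2 -5.72), Atp6v1e1 (-4.80), Aqp9 (-4.01), Atp6v0a1 (-3.75) and Atp6v1a, which had 0 counts in nuclei. Both nuclei libraries lay below whole sperm in CPM for 15 of 21 tested V-ATPase genes (71.4%), 1 of 7 carbonic anhydrases and 1 of 6 others, against 41.2% of all genes. Both lay above it for 4, 4 and 2 of them, against 26.1% of all genes. Of the tested members, Atp6v1a, Atp6v0a4 and Atp6v1g3 had 0 counts in nuclei, and Car8 and Car10 had 0 in whole sperm. Each passed the count filter only through the group where it was counted, so the sign of its difference was fixed in advance. The shares of all genes include such genes too. The median log2 difference was -1.81 for V-ATPase genes, 2.1 for carbonic anhydrases and -0.04 for all genes. It was -1.30 and -2.64 for V-ATPase genes, and 2.57 and 0.70 for carbonic anhydrases, with nuclei 1 or nuclei 2 alone. With spike-in scaling it was -3.23 and 0.67. Setting members with 0 counts in a group at their bound left the TMM-scaled medians of V-ATPase genes and carbonic anhydrases unchanged. Each bound lay on the same side of the median as the value it replaced, so these medians could not move.

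**Figure D1:**
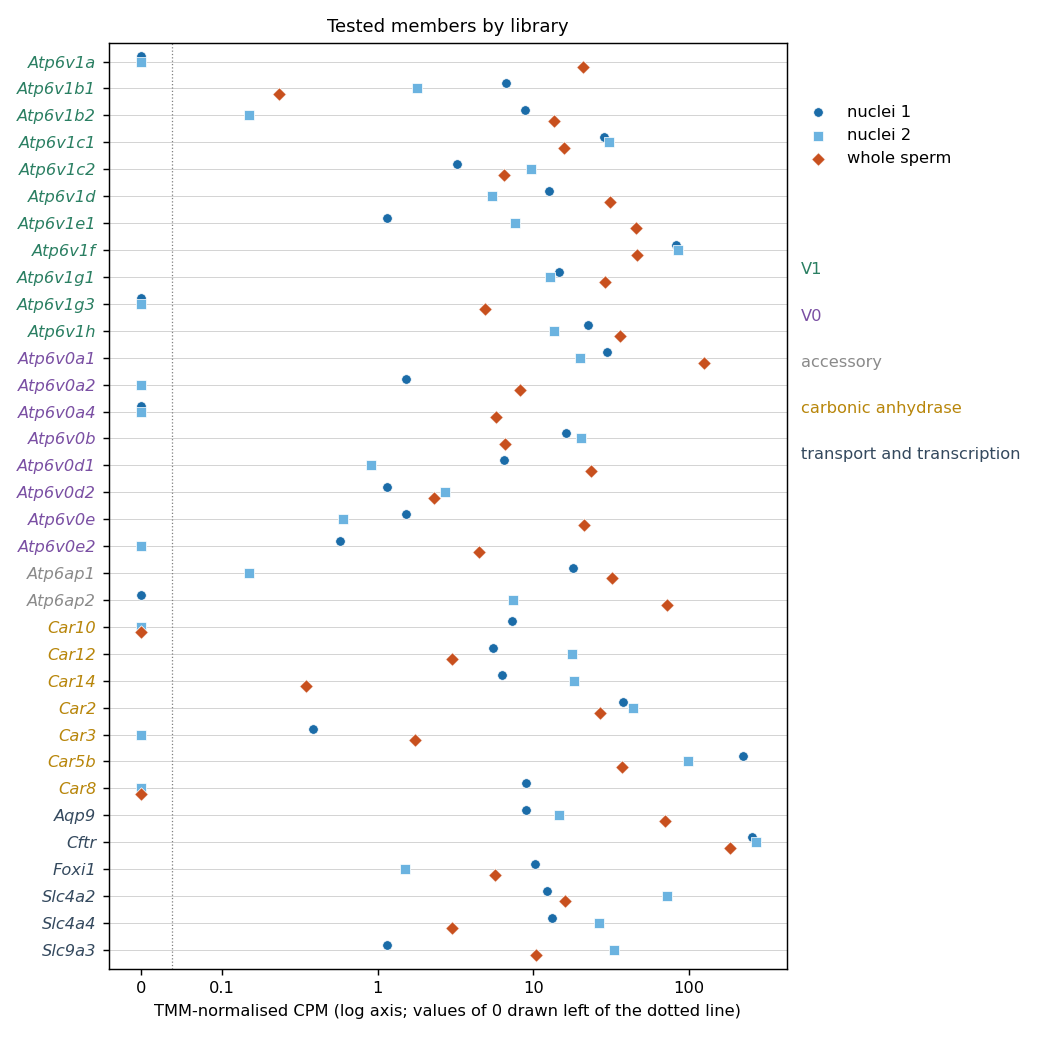
TMM-normalised CPM (log axis) of the 34 tested members, 1 point per library, with names coloured by role and values of 0 left of the dotted line. Whole sperm is the rightmost point for most V-ATPase genes, whereas for Car12, Car14, Car2 and Car5b both nuclei libraries lie to its right.

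As a share of each library's counts, V1 genes took 0.0172% (exact Clopper-Pearson 95% interval 0.0161 to 0.0184), 0.0167% (0.0157 to 0.0177) and 0.0260% (0.0249 to 0.0271). V0 genes took 0.00547%, 0.00442% and 0.0204%, and accessory genes 0.00171%, 0.000752% and 0.0108%. Carbonic anhydrases took 0.0276% (0.0263 to 0.0291), 0.0178% (0.0168 to 0.0189) and 0.00730% (0.00673 to 0.00790), the opposite order. The V1 and carbonic anhydrase intervals of nuclei did not overlap those of whole sperm. However, the carbonic anhydrase intervals of the 2 nuclei libraries did not overlap each other either. All these intervals cover counting error only, and PCR copies were not identified.

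**Figure D2:**
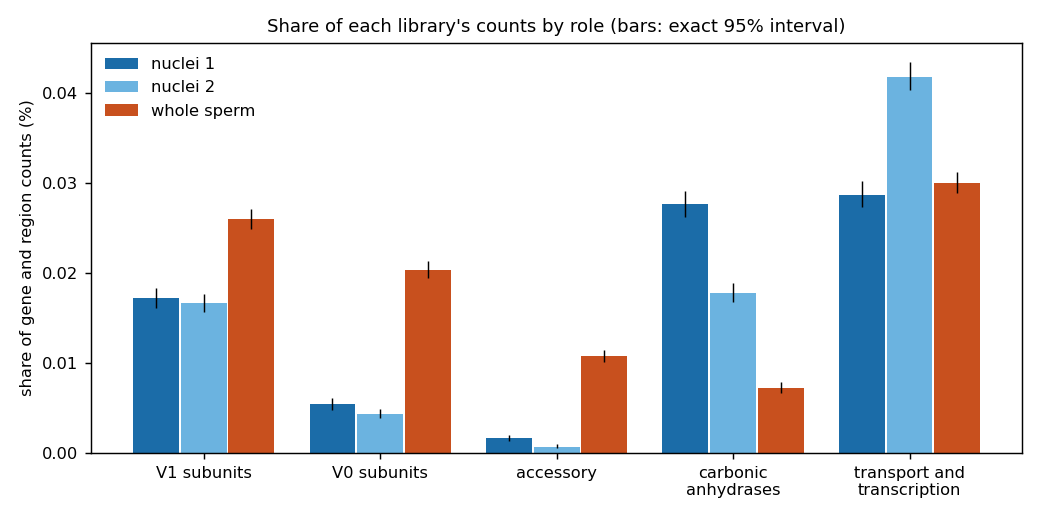
Share of gene and region counts (%) taken by each role, 1 bar per library with its exact 95% interval. The V1, V0 and accessory bars are highest in whole sperm, and the carbonic anhydrase bars are lowest there.

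Within V1, the catalytic head alternates A and B subunits. Atp6v1a, the only A subunit gene (chr16:44085402-44139705), had 0, 0 and 180 counts, so nuclei were at least 40.7-fold lower against a floor of 3 counts per library (edgeR adjusted p = 0.725). Its partner Atp6v1b2, the widely expressed B isoform, had 46, 1 and 118 counts, so nuclei 2 was far below both others. Atp6v1b1, the B isoform of clear cells and kidney intercalated cells, had 35, 12 and 2 counts. Both nuclei libraries were above whole sperm for Atp6v1b1, with a ratio of 17.1 (95% counting interval 4.47 to 145), but edgeR did not call it (adjusted p = 0.971). Per length, B2 took 99.3% of the RPKM of the B family in whole sperm and 55.7% in nuclei 1, while B1 took 93.7% in nuclei 2. In nuclei 1 the order of the B genes depended on the scale, since CPM per kilobase put B1 above B2 (3.34 and 3.11).

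The stalks of V1 hold the head against the membrane. Atp6v1e1, the widely expressed peripheral stalk E subunit, had 6, 51 and 392 counts (nuclei 4.40 ± 4.60 CPM, SD, n = 2, against 45.3; log2 -3.35 ± 1.81 SE, edgeR adjusted p = 0.908). Atp6v1e2, the E isoform of testis, had 0, 0 and 10 counts, too few to be tested. E1 therefore took 98.1% of the family's RPKM in whole sperm and all of it in nuclei. Atp6v1g1, the widely expressed G subunit, was at 14.5, 12.7 and 28.8 CPM. The epithelial isoform Atp6v1g3 had 0, 0 and 42 counts, nuclei being at least 9.49-fold lower, and the neuronal Atp6v1g2 had 0 throughout. Atp6v1d of the central rotor was at 12.6, 5.40 and 31.0 CPM and the regulatory subunit gene Atp6v1h at 22.5, 13.5 and 36.0 CPM. For the tested genes among these both nuclei libraries were below whole sperm, none beyond the test.

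Atp6v1f, a rotor subunit (chr6:29467718-29470512), went the other way and was the member with the highest RPKM in every library. It had 432, 566 and 398 counts, or 82.4, 84.8 and 46.0 CPM (log2 0.86 ± 0.93 SE, edgeR adjusted p = 0.909). It held 45.7%, 51.1% and 18.4% of V1 counts. Atp6v1c1, the widely expressed C subunit that links stalk and membrane, was at 28.4, 30.4 and 15.7 CPM. The nuclei libraries were close to each other and above whole sperm in CPM for both genes, although both differences turned negative with spike-in scaling (-0.57 and -0.53). In RPKM the nuclei libraries were further apart, with Atp6v1f at 41.0, 68.6 and 37.3 and Atp6v1c1 at 3.75, 9.01 and 4.87, where whole sperm lay between them. The epithelial isoform Atp6v1c2 was at 3.24, 9.59 and 6.47 CPM, with whole sperm between the nuclei libraries.

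In V0, the a subunit anchors the stalks and lines the proton path. Atp6v0a1 (chr11:101009452-101063719) had 156, 132 and 1072 counts (nuclei 24.8 ± 7.06 CPM, SD, n = 2, against 124; log2 -2.32 ± 0.92 SE, edgeR adjusted p = 0.503). Atp6v0a2, an isoform of the Golgi and endosomes, had 8, 0 and 71 counts. Atp6v0a4, the isoform of clear cells and intercalated cells, had 0, 0 and 50, with nuclei at least 11.3-fold lower. All 3 genes were highest in whole sperm, and Atp6v0a1 took 87.2% of the family's RPKM there. Exons of Atp6v0a4 share 259 bases (5.21%) on the same strand with D630045J12Rik, which had 52, 31 and 158 counts, also highest in whole sperm. Those of Atp6v0a2 share 663 bases (9.86%) with the antisense gene 4930404A12Rik.

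The other V0 genes varied in level. Atp6v0e, a small membrane subunit gene, had 8, 4 and 182 counts (19.8-fold lower in mean CPM, edgeR adjusted p = 0.909), and its relative Atp6v0e2 had 3, 0 and 39. Atp6v0d1, which joins the rotor to the ring, had 34, 6 and 204 counts, and the epithelial and osteoclast isoform Atp6v0d2 had 6, 18 and 20. By RPKM, d1 was above d2 in nuclei 1 and whole sperm, and d2 above d1 in nuclei 2. Atp6v0b, a ring subunit related to Atp6v0c, had 85, 134 and 57 counts (16.2, 20.1 and 6.58 CPM; edgeR adjusted p = 0.968), both nuclei libraries being above whole sperm. Its exons share 243 bases (11.8%) with the antisense gene Gm12841, and without a stated strand setting reads of the pair cannot be told apart.

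The accessory protein genes lay below whole sperm in both nuclei libraries. Atp6ap2, the prorenin receptor needed for pump assembly (chrX:12587801-12617049), had 0, 49 and 622 counts (nuclei 3.67 ± 5.19 CPM, SD, n = 2, against 71.8; log2 -4.27 ± 1.43 SE, edgeR adjusted p = 0.322). It had the smallest adjusted p of the members in this test. Atp6ap1, another assembly factor, had 94, 1 and 275 counts, and Atp6ap1l had 0 throughout. Between the nuclei libraries, Atp6ap2 had its 0 in nuclei 1 and Atp6ap1 its count of 1 in nuclei 2.

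**Figure D3:**
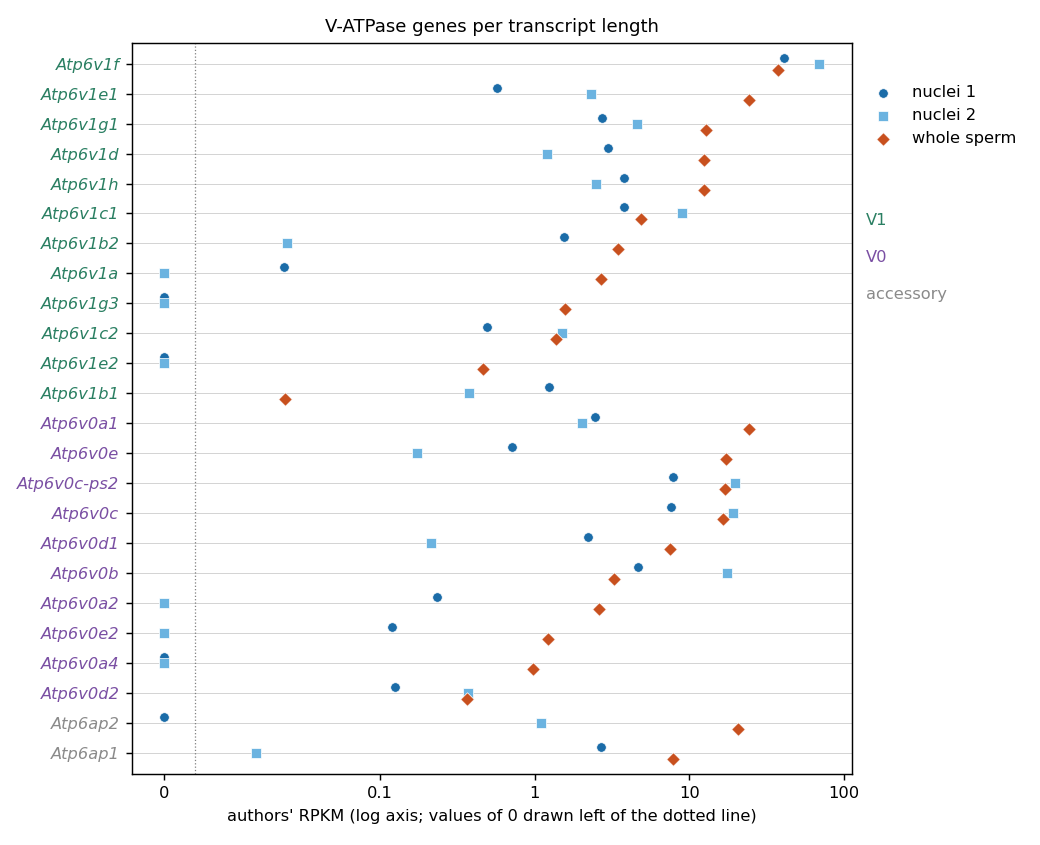
Authors' RPKM (log axis) of V-ATPase genes with a value above 0, 1 point per library, ordered by whole sperm within each sector, with values of 0 left of the dotted line. Atp6v1f has the highest values in all 3 libraries, from 37.3 to 68.6 RPKM, and the nuclei points of most other genes lie left of whole sperm.

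Many V-ATPase genes carry in their promoters the CLEAR element, bound by TFEB, a regulator of lysosomal genes. Its core TCACGTGA, which contains the E-box CACGTG and is its own reverse complement, was searched in RefSeq windows from 250 bases before to 50 after the start of transcription (GRCm38.p6; 35 of 48 members had an entry). It occurred in 3 of 22 windows of V-ATPase genes (13.6%) and in 0.974% of all 32851 windows, although V-ATPase windows held a median of 17 CpG and all windows 7, and the core contains a CpG. CACGTG, counted with or without the longer core, was in 18.2% and 7.15%. The 3 matches are shown with 10 bases on either side and the core in capitals. Distances are from the start that each RefSeq window uses. The GENCODE spans of Atp6v1a (chr16:44085402-44139705) and Atp6v0e (chr17:26663231-26699647) begin elsewhere, and both matches lie inside them.
Atp6v0d1 (chr8:105566051-105566078, minus strand, 4 bases before the start): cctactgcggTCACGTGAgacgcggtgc
Atp6v0e (chr17:26676388-26676415, plus strand, 2 bases after the start): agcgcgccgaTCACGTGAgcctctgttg
Atp6v1a (chr16:44139374-44139401, minus strand, 132 bases before the start): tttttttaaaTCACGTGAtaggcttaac
For all 3 genes both nuclei libraries were below whole sperm, as they were for 15 of 21 tested V-ATPase genes (71.4%). Atp6v1a, with 0 counts in nuclei, passed the count filter through whole sperm alone. Atp6v0b, whose window held CACGTG at 2 places without the longer core, was above whole sperm in both. Any link of motif and direction was not tested. A forkhead motif, TGTTTNC on either strand, was in 17.8% of the 45 member windows and 20.5% of all windows. A match describes letters only, and shows neither binding nor a cause.

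Among carbonic anhydrases, Car5b and Car2 held most counts in every library. Car5b, the mitochondrial enzyme (chrX:163976822-164027997), had 1161, 656 and 323 counts. These were 222, 98.3 and 37.3 CPM, so both nuclei libraries were above whole sperm (4.29-fold in mean CPM; log2 2.1 ± 0.87 SE, edgeR adjusted p = 0.589). The difference had the same sign but was smaller in RPKM (13.4, 7.89 and 5.20) and with spike-in scaling (log2 0.67). Car5b made up 76.6%, 55.3% and 53.2% of carbonic anhydrase counts. The liver form Car5a had 0, 0 and 1 counts.

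Car2, the fast cytosolic enzyme of clear cells, had 197, 290 and 231 counts (nuclei 40.5 ± 4.16 CPM, SD, n = 2, against 26.7; log2 0.60 ± 1.21 SE, edgeR adjusted p = 0.988). Both nuclei libraries were above whole sperm in CPM, but in RPKM (8.07, 11.1 and 10.1) whole sperm lay between them, and with spike-in scaling the difference was negative (log2 -0.83). The membrane enzyme Car12 was at 5.53, 17.7 and 3.0 CPM. Car14, another membrane enzyme with an extracellular active site, had 33, 122 and 3 counts, a ratio of 37.6 (95% counting interval 12.6 to 184; edgeR adjusted p = 0.909). The gap was smaller in RPKM, at 1.87, 5.08 and 0.548. Its exons share 445 bases (17.5%) with Aph1a on the opposite strand, which had 45, 136 and 136 counts, and here too the strands cannot be told apart. Both genes were higher in nuclei 2 than in nuclei 1 by count.

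The remaining carbonic anhydrases had under 50 counts in every library. Car8 and Car10, related proteins without catalytic activity, had 47 and 38 counts in nuclei 1 and 0 elsewhere, so their mean nuclei CPM was at least 12.9-fold and 10.5-fold higher, on 1 library alone. Car11, which also lacks activity, had 8, 0 and 0 counts. Car3, the muscle and fat enzyme, had 2, 0 and 15 counts. Car4, a membrane-anchored enzyme known from the epididymis, had 0, 0 and 6, Car15 had 0, 0 and 2, and Car9 had 1, 0 and 0. Car1, Car6, Car7 and Car13 had 0 throughout.

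Cftr, the chloride and bicarbonate channel (chr6:18170687-18322768), had more counts than any other member in every library. It had 1335, 1798 and 1584 counts, or 255, 270 and 183 CPM (log2 0.52 ± 0.75 SE, edgeR adjusted p = 0.948). The nuclei libraries lay close together and above whole sperm in CPM, but below it in RPKM (17.4, 19.8 and 20.5) and with spike-in scaling (log2 -0.92). Aqp9, the water and glycerol channel of principal cells, had 47, 97 and 607 counts (nuclei 11.8 ± 3.94 CPM, SD, n = 2, against 70.1; log2 -2.57 ± 1.24 SE, edgeR adjusted p = 0.775). Both nuclei libraries were below whole sperm, as they were for the 7 tested of 9 listed principal cell markers. Any link between Aqp9 and these markers was not tested.

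Slc4a4, the sodium-bicarbonate cotransporter, was at 13.2, 26.2 and 3.0 CPM, with both nuclei libraries above whole sperm (edgeR adjusted p = 0.909). Slc4a2, the anion exchanger, had 64, 481 and 138 counts, and Fastk, which overlaps 13.7% of its exon bases on the opposite strand, had 9, 302 and 46, also highest in nuclei 2. Slc9a3, the apical sodium-proton exchanger, had 6, 218 and 90 counts. For Slc4a2 and Slc9a3 nuclei 2 was the highest library and nuclei 1 the lowest. Foxi1, the transcription factor that specifies acid-secreting cells, had 54, 10 and 49 counts, so whole sperm lay between the nuclei libraries.

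**Figure D4:**
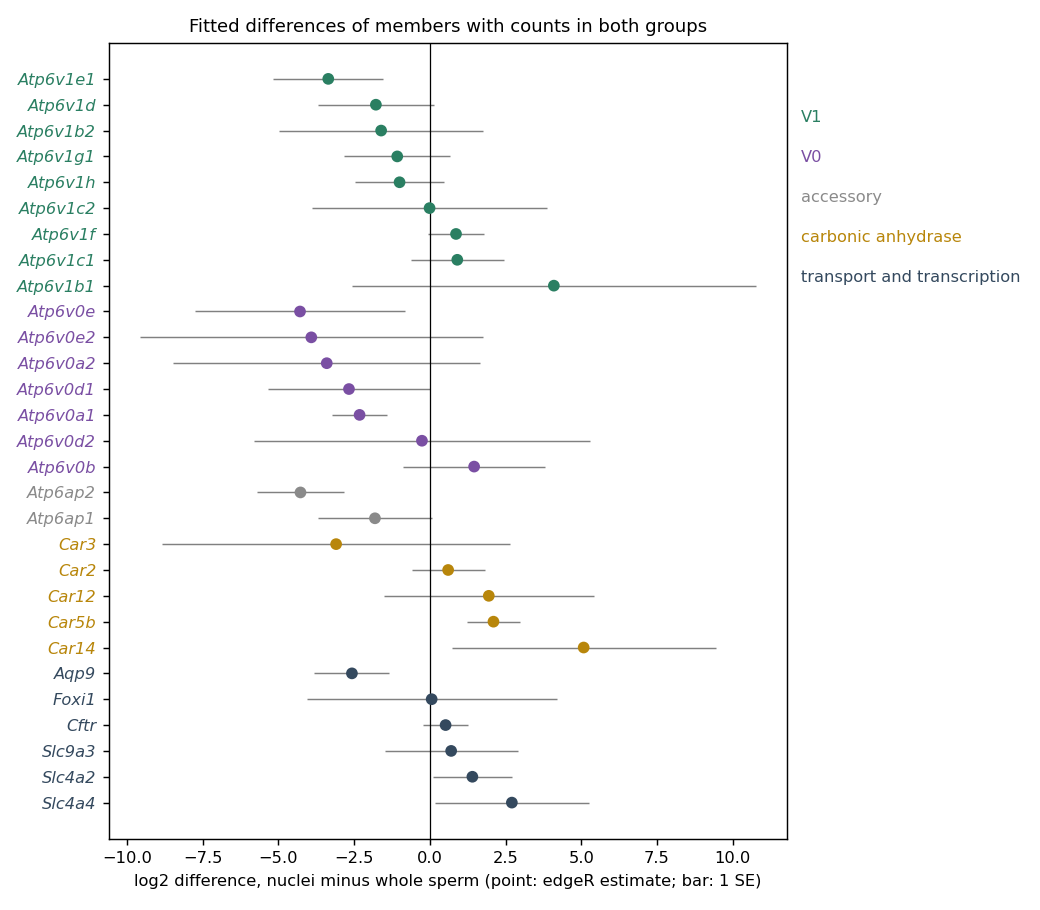
Fitted log2 difference (nuclei minus whole sperm, point) with 1 SE (bar) for the 29 tested members that had counts in both groups, by role. Most V-ATPase points lie left of 0 and 4 of 5 carbonic anhydrases right of it, and none passed the test after adjustment.

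Acid-secreting cells were looked for with a list of 12 genes, 6 of them members. The list summed to 55.3, 48.1 and 69.1 CPM, and 0 of 10 tested genes passed (0 at an unadjusted p under 0.05). Tfcp2l1, a transcription factor of such epithelia, was at 18.5, 32.4 and 39.3 CPM. The others that are not members were uneven: Slc26a4 had 21, 0 and 0 counts, Slc4a9 53, 0 and 3, Rhbg 0, 0 and 29, Rhcg 7, 0 and 5, and Hepacam2 0, 1 and 2.

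V-ATPase assembly and regulation genes showed no called difference either. Of 12 in the tables, 10 were tested and 0 passed (edgeR; unadjusted, 1 was lower at p under 0.05, median log2 -0.12). That gene, Dmxl1 of the complex that joins V1 to V0, was at 16, 20.2 and 111 CPM (adjusted p = 0.447), while its paralog Dmxl2 (17.6, 40.9 and 35.3 CPM) and their partner Wdr7 (24.2, 33.9 and 23.9 CPM) had no such gap. Oxr1 was at 17.0, 68.7 and 9.93 CPM. Genes of bicarbonate and proton transport and sensing were also listed, and 3 of them are given here, none of which passed the edgeR test. Slc9a8 was at 66.8, 76.2 and 36.0 CPM, Slc9a3r1, a scaffold protein that binds Cftr and Slc9a3, at 14.3, 58.5 and 82.3 CPM, and Slc4a7 at 21.4, 57.1 and 46.2 CPM.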

How the data were processed

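Counts are whole reads per gene or assembled region, deposited by the authors without normalization. RPKM values come from the authors' deposited table, whose read assignment is not given. The submitters' processing notes name build mm10, HTSeq, DESeq2, bedtools, SAMtools 0.1.19, Cufflinks 2.1.1, TopHat2 2.0.12 and CASAVA 1.8.2. Their roles and the strand setting were not given in the sources used here. A deposited score for adjusted whole sperm is, for all 25610 rows and within 0.5, what remains of a count after the nuclei mean is taken off, with negative values set to 0. Region positions come from the authors' deposited list, in which no region overlapped a member.

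The test was edgeR 4.0.16 (R 4.3.3, TMM, filterByExpr; 16720 of 25610 features) with 1 residual degree of freedom and a threshold of 0.05; whole sperm is assumed to vary like nuclei, and SEs derive from the F statistic. The common biological coefficient of variation was 1.3. Spike-ins and, in whole sperm, reads outside features (34.4%) and ambiguous reads (1.97%) were left out. Folds against 0 use 3 counts per library; intervals and floors cover counting error only. The test, tried on simulated data, recovered changes where the spread was small and none where it was as wide as in these libraries. In the libraries themselves it called 20 genes, so the simulated setting differs from the data. Alternatives were DESeq2 1.42.0, limma 3.58.1 on log2(RPKM + 0.1) and log2(RPKM + 1), other scalings and filters, and each nuclei library alone. Positions and lengths come from GENCODE vM21, which annotates the build that mm10 names, and 48 members matched. Every member with 20 or more counts could be named in full, and up to 4 of each list by mean CPM, others being named after their values were seen. Members and lists were chosen with earlier results of these data known. A gene of the transport list, and that list's summary, are not reported here.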

Additional observations from a re-analysis of the deposited data

How the results depend on the processing

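Over all genes, 4 were higher and 16 lower in nuclei by the edgeR test. The higher count was 2 with library size alone, 1 with spike-in scaling, 198 with the DESeq2 test and 0 with a mean of at least 10 CPM and with limma at either pseudocount. The lower count was 527 with spike-in scaling, 38 with the DESeq2 test and 0 with the same CPM filter and both limma fits. Members lower went from 0 to 5 with spike-in scaling and were 0 under every other scaling, filter and test run. Members higher were 0 under all of them. The DESeq2 test gave an adjusted p for Car5b and Cftr alone, so there the other members could not be called. The members' median of -0.63 was -2.06 with spike-in scaling, -0.32 with at least 10 CPM (18 members tested), -1.61 with limma on log2(RPKM + 0.1), and -1.29 to -0.91 when each nuclei library was left out. Under the same settings and in the same order, the median of all genes, -0.04, was -1.48, -0.02, -0.91, and -0.44 to -0.25. With spike-in scaling, 7 members changed sign: Atp6v1c1 (-0.53), Atp6v1f (-0.57), Car2 (-0.83), Cftr (-0.92), Foxi1 (-1.36), Slc4a2 (-0.0433) and Slc9a3 (-0.75). With limma at pseudocounts of 0.1 and 1 RPKM, 4 did: Car2 (-0.0873 and -0.0786), Cftr (-0.15 and -0.14), Foxi1 (-0.90 and -0.35) and Slc9a3 (-1.41 and -0.45). Atp6v1c2, near 0, was at 0.0334 with DESeq2 size factors, 0.0336 with the DESeq2 test and 0.0705 without the 10 most abundant features, and Foxi1 was at -0.0554 with library size alone. The cause of these changes was not tested. No paired analysis was possible because whole sperm is 1 library. That library has no replicate, so the spread rests on the nuclei pair alone, in edgeR pooled over genes.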

Other observations

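In the adjusted whole-sperm score that the authors deposited, the mean nuclei count is subtracted without scaling for depth. The split of members in it therefore follows from their counts by arithmetic and adds no further evidence. Cftr kept 18 of 1584 (1.14%), and Atp6v1f, Atp6v1c1, Atp6v0b, Atp6v1b1, Car2, Car5b, Car12, Car14, Slc4a2, Slc4a4 and Slc9a3 were set to 0. For Slc4a2 and Slc9a3 whole sperm lay between the nuclei libraries, and the high count of nuclei 2 set the mean above it. Atp6ap2 kept 598 of 622 (96.1%), Atp6v0e 176 of 182 (96.7%), Atp6v1e1 364 of 392 (92.9%), Aqp9 535 of 607 (88.1%) and Atp6v0a1 928 of 1072 (86.6%). Atp6v1a, Atp6v0a4 and Atp6v1g3 kept all of theirs.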
